A study of Mus musculus with 6 samples.

Results

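The SR and hnRNP genes encode the 2 large families of RNA-binding proteins that steer pre-mRNA splicing. They were taken here as the protein-coding genes whose symbols start with Srsf or Hnrnp, together with Ptbp1, Ptbp2, Ptbp3, Rbmx, Rbmxl2, Tra2a and Tra2b, which gave 38 of the 54532 genes in the count table and 38 of its 22046 protein-coding genes. Their RNA was measured by full-length RNA-seq of leptotene/zygotene (L/Z) spermatocytes, germ cells in the first stages of meiotic prophase, sorted by Hoechst fluorescence from C57BL/6J mouse testes at the age of 12 days postpartum (dpp). Of the 6 libraries 3 were Control libraries, which the labels give as wild type and the methods as littermate controls, and 3 were Eef1g-cKO libraries. In Eef1g-cKO males a floxed block of exons of Eef1g, the gamma subunit of translation elongation factor 1, is deleted by Stra8-GFPCre. This Cre is driven by Stra8 and acts from differentiating spermatogonia on. Neither the labels nor the methods say whether the libraries of a genotype came from separate animals, and the p-values measure the spread between these libraries.

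SR proteins carry RNA recognition motifs and a domain rich in arginine and serine. They bind exonic enhancers, recruit the spliceosome to nearby splice sites and in most settings promote exon inclusion. The hnRNP proteins coat nascent transcripts, and many of them repress splice sites or compete with SR proteins for the same exons. In male germ cells some family members hand over to relatives, as when Ptbp2 takes the place of Ptbp1 and the autosomal retrogene Rbmxl2 that of its X-linked parent Rbmx.

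The libraries held 763133 to 2617648 reads assigned to genes, and the smallest was Eef1g-cKO 3, with the highest share of rRNA (9.23%). Eef1g itself stood at 219.8 ± 7.34 CPM in Control (read counts relative to library sizes scaled by TMM) and at 136.2 ± 16.0 CPM after the deletion (SD over 3 libraries per genotype), a log2 fold change of -0.68 (adjusted p = 0.0290, edgeR quasi-likelihood test). L/Z markers were present in all libraries, with a summed level of 13707.6 to 14980.1 CPM in Control and 29294.1 to 36154 CPM in Eef1g-cKO, and 6 of their 8 genes were called higher and 1, Stra8, lower. Spermatogonial markers summed to 1489.8 to 1670.8 CPM in Control and 672.8 to 826.9 CPM in Eef1g-cKO, where 5 of the 5 tested were called lower, none of the 8 being at 0 throughout. Markers of pachytene and later germ cells summed to 306.8 to 398.4 CPM and 253.3 to 322.6 CPM, with Acrv1 and Adam3 at 0 and 1 of the 4 tested, Piwil1, called lower. Sertoli cell markers summed to 174.8 to 373.2 CPM and 56.9 to 88.0 CPM, and 2 of the 4 tested were called lower. Peritubular and stromal markers summed to 129.1 to 238.9 CPM and 12.4 to 51.0 CPM, and 3 of the 4 tested were called lower. Leydig cell markers summed to 8.4 to 10.7 CPM and 1.6 to 6.5 CPM, with Cyp17a1 and Hsd3b1 at 0, and blood cell markers to 6.7 to 74.8 CPM and 3.2 to 75.7 CPM, with Cd68 and Csf1r at 0. The L/Z, spermatogonial, Sertoli, peritubular and stromal, and Leydig sums did not overlap between genotypes, while those of pachytene and later germ cells and of blood cells did. The Leydig sums rest on few reads, mostly of Star (14, 18 and 11 in Control, 8, 4 and 2 in Eef1g-cKO). With 0 Leydig markers tested, no difference in them was shown. The part of these cells in the differences given for the splicing factor genes was not tested. Fewer cells of a type and less RNA per cell cannot be told apart in these bulk libraries.

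The splicing factor genes lie on 17 chromosomes, and 2 of them, Rbmx and Hnrnph2, are X-linked. Their promoters were read from RefSeq windows (GRCm38.p6) of 250 bases before to 50 bases after an annotated start, which exist here for 35 of the 38 genes in 47 windows. CpG dinucleotides had a median of 28 in these windows, against 23 in the 8180 windows of tested genes and 7 in all 32851 windows. The motif CCAAT (or ATTGG on the other strand) was in 53.2% of the splicing factor windows, against 38.9% of the windows of tested genes and 37.4% of all windows. GGGCGG (or CCGCCC), the core of the GC box, was in 83.0%, against 66.1% and 35.7%. TATAAA (or TTTATA) was in 10.6%, against 6.7% and 13.6%. CCGGAA (or TTCCGG) was in 36.2%, against 31.1% and 14.9%, and CACGTG, which is its own reverse complement, in 14.9%, against 11.1% and 7.2%. These motifs do not contain each other, and a match says only that the letters are present.

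The 250 bases before the start are shown for Hnrnpa1, the member called lower below, and for Hnrnph1 and Srsf6, both called higher, because these are the called members whose upstream window holds no annotated exon. All 3 are on the plus strand, at chr15:103240147-103240396, chr11:50376740-50376989 and chr2:162931258-162931507, and capitals mark CCAAT and GGGCGG on either strand.
Hnrnpa1: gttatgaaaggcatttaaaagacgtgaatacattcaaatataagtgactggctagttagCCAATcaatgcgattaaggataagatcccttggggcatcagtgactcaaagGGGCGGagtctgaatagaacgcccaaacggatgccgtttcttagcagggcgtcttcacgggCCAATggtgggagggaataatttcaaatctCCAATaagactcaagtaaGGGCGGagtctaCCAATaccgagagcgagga
Hnrnph1: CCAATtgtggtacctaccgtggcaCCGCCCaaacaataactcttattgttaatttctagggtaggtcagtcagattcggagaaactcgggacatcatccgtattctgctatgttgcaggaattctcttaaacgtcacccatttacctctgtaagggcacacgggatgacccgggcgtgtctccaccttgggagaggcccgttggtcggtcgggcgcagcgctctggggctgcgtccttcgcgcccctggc
Srsf6: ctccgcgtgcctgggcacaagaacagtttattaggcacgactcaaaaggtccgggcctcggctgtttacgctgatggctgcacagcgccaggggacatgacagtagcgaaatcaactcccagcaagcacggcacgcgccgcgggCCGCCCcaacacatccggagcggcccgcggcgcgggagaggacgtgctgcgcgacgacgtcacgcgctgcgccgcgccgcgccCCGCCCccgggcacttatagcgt
The Hnrnpa1 window held 4 CCAAT and 2 GGGCGG matches in 46.0% GC with 11 CpG dinucleotides. The Hnrnph1 window, the most upstream of its starts, held 1 of each motif in 55.6% GC with 17 CpG dinucleotides. Overlapping windows at chr11:50377986-50378235 and chr11:50378041-50378290, for downstream starts of Hnrnph1, held no CCAAT and 2 GGGCGG matches each, with 25 and 23 CpG dinucleotides. The Srsf6 window held no CCAAT and 2 GGGCGG matches, in 68.4% GC with 35 CpG dinucleotides.

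Levels of different genes were compared as TPM (counts divided by the gene length in the table and brought to the same sum in each library). The family was led in Control by Hnrnpa2b1, which binds UAG-containing RNA and also acts in mRNA transport, at 1274, 1040 and 1255 TPM. Srsf7, an SR protein with a zinc knuckle, followed at 767, 841 and 895 TPM, and Hnrnph1, which binds runs of G, at 580, 568 and 536 TPM. At the deposited gene lengths each of these 3 genes was above the next in every Control library. The deposited length of Srsf7 is 2279 bases, against 3550 exonic bases in the GENCODE M21 annotation, so its place depends on the length used. Without division by length, the Control mean of Srsf7 was 735 CPM, below that of Hnrnph1 at 1269 CPM. Srsf9 (441 ± 7.42 TPM), Srsf6 (410 ± 39.6 TPM) and Hnrnpk (371 ± 29.5 TPM), a KH-domain protein that binds C-rich RNA, came next, and their Control libraries overlapped. The first 7 genes of the order, down to Hnrnpf, held 52.2% of the summed family TPM. Of the 37 neighbouring pairs in the order, 10 did not overlap across the Control libraries, and for the others the order is within the spread. In Control 23 genes were above 100 TPM and 5 were under 10 TPM.

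The 5 least abundant genes per length were Rbmx (5.62 ± 2.39 TPM), Hnrnpa3 (3.43 ± 2.44 TPM), Srsf12, Srsf4 and Ptbp1. The last 3 had too few reads to be tested. Srsf12 had 3, 0 and 0 reads in Control and 10, 6 and 1 in Eef1g-cKO. Srsf4 had 2, 0 and 1 reads in Control and 0 in each Eef1g-cKO library, where 3 reads correspond to 1.18 to 4.63 CPM. Ptbp1, the somatic member of the polypyrimidine tract-binding family, had 2, 0 and 2 reads in Control and 5, 2 and 0 in Eef1g-cKO. An exonic overlap on the opposite strand covers 43.0% of Srsf4 and 20.7% of Ptbp1, so that even these reads cannot be assigned with certainty.

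**Figure D1:**
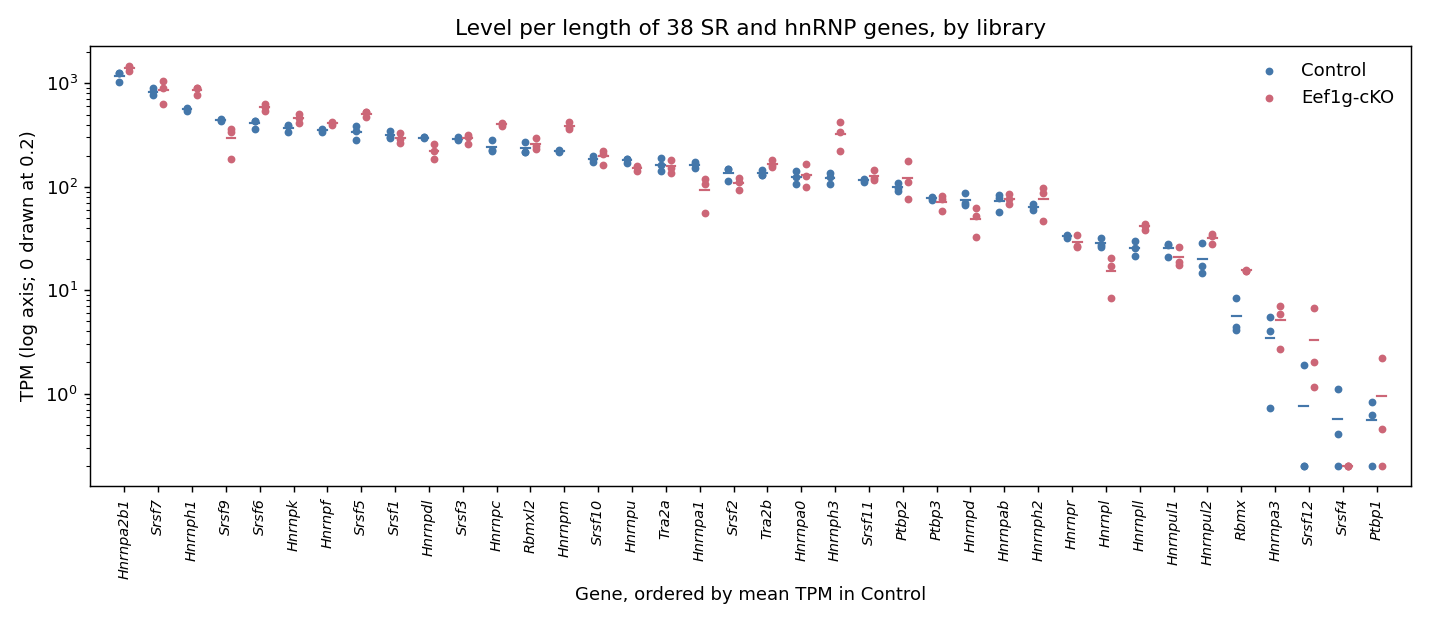
Level of each of the 38 genes in TPM on a log axis, ordered by the Control mean, with 1 point per library, a bar at the mean of 3 libraries and values of 0 drawn at 0.2. Levels span from 1190 TPM for Hnrnpa2b1 to 0.48 TPM for Ptbp1 in Control, and Hnrnph3 stands out as the gene whose Eef1g-cKO points lie farthest above its neighbours.

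The family as a whole took a share of the raw reads of a library that was not shown to differ between genotypes. Its share was 1.67%, 1.59% and 1.71% of the reads of Control 1, 2 and 3 and 1.80%, 1.82% and 1.61% of those of Eef1g-cKO 1, 2 and 3. The genotypes overlapped in this share, and the difference of 0.081 percentage points had an exact permutation p of 0.3 (two-sided, where 3 against 3 libraries cannot go below 0.1). SR and SR-like genes held 0.612% ± 0.026 of the reads in Control and 0.608% ± 0.056 in Eef1g-cKO (exact permutation p = 0.9), and the hnRNP and PTB genes 1.05% ± 0.04 and 1.13% ± 0.058 (exact permutation p = 0.3). Without mitochondrial and rRNA genes the family shares were 1.92% ± 0.052 and 1.97% ± 0.039 (exact permutation p = 0.3). Per length, the summed TPM of the family had a mean of 7963.7 in Control and 9273.4 in Eef1g-cKO, and this difference was not tested. The coefficient of variation of the tested members had a median of 8.9% across Control and 13.7% across Eef1g-cKO libraries, against 12.6% and 17.5% for the 2129 tested genes with the highest mean CPM.

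To ask which of the genes differed between genotypes, all 8513 genes that passed the low-count filter were fitted together with edgeR, and p-values were adjusted over all of them by Benjamini-Hochberg. Of the 38 splicing factor genes 35 were tested. At an adjusted p under 0.05, 7 were higher in Eef1g-cKO, namely Hnrnph3, Hnrnpm, Hnrnph1, Hnrnpc, Srsf5, Srsf6 and Hnrnpll, against a background of 7.8% of all tested genes. Hnrnpa1 was lower, against a background of 6.01%, and 27 genes were not called. With an additional limit of 1 on the absolute log2 fold change, 1 gene was higher (Hnrnph3) and 0 were lower (3.42% and 4.96% of tested genes). At an unadjusted p under 0.05, 10 members were higher and 5 lower, against 14.3% and 13.2% of all tested genes. The libraries of the genotypes did not overlap in CPM for 17 of the 35 genes, 12 higher and 5 lower, against 34.5% of tested genes.

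Because these genes are abundant, the same counts were read against the 2129 most abundant tested genes by mean CPM (the upper 25%), which contain 29 of the members and all 8 called ones. In this set 24.4% of genes were called higher and 5.73% lower, against 7 and 1 of the 29 members. At an unadjusted p under 0.05 the shares were 37.6% and 10.1%, against 9 and 4 of the 29. The genotypes did not overlap for 51.1% of its genes and for 15 of the 29 members. The median log2 fold change of the tested members was 0.15, from -0.87 to 1.47, against -0.05 for all tested genes and 0.28 for the abundant set. The counts of called members were thus near those of other genes of similar abundance, and the results below are those of single genes.

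The split of calls moved with library scaling. All tested genes gave 664 higher and 512 lower with TMM, 463 and 639 with upper-quartile scaling and 333 and 643 with library totals alone. The members gave 7 and 1, 5 and 4, and 4 and 2. Over all tested genes the median was -0.05, -0.17 and -0.24 on the log2 scale under the 3 scalings, and that of the members stood above it by 0.20, 0.20 and 0.19.

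**Figure D2:**
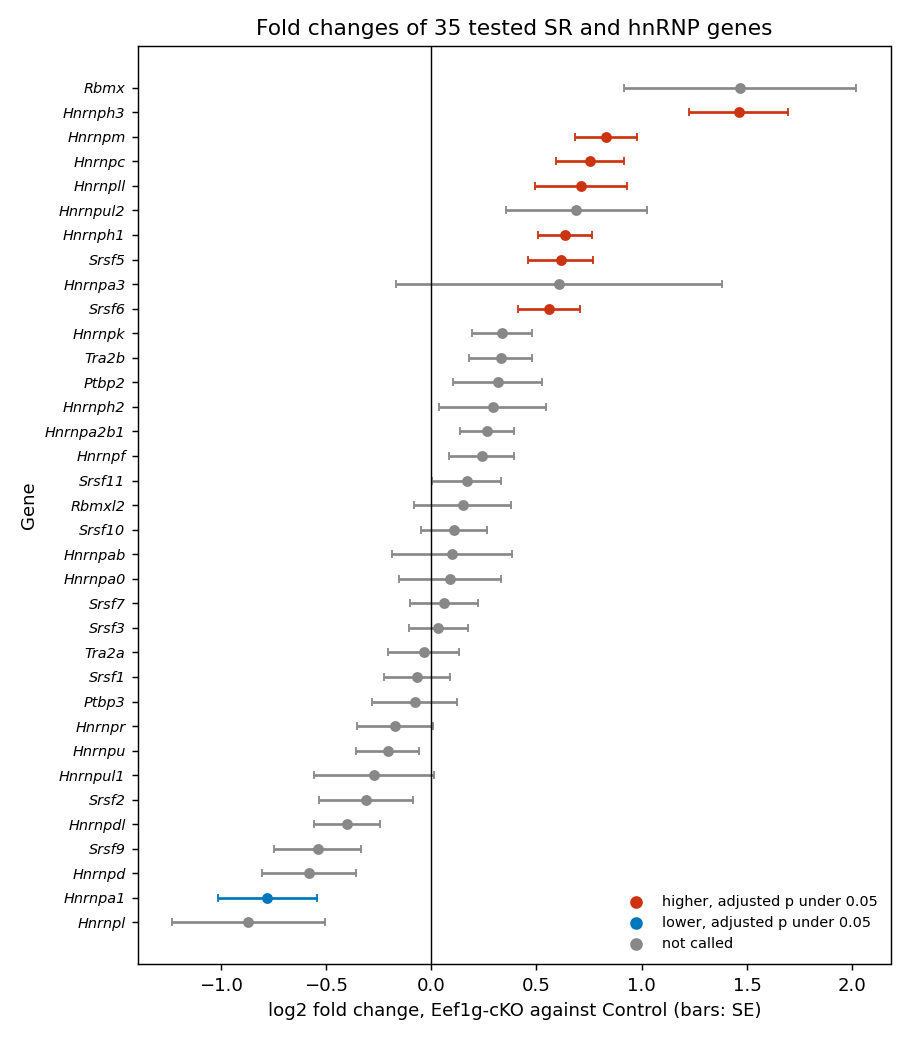
Log2 fold change of Eef1g-cKO against Control for the 35 tested genes, with bars of 1 SE from the edgeR fit and colour for the call at an adjusted p under 0.05. The 7 genes called higher lie between 0.56 and 1.46, Hnrnpa1 lies at -0.78, and the intervals of the low-count genes Rbmx and Hnrnpa3 are the widest.

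Among the 11 SR proteins, Srsf5 and Srsf6 were higher and the other 7 tested were not called. Srsf5 (chr12:80945504-80950507), an SR protein that activates exons through purine-rich enhancers, was at 530, 446 and 588 CPM in Control and 816, 776 and 803 CPM in Eef1g-cKO. All Eef1g-cKO libraries were above all Control libraries, by 1.53-fold (log2 fold change 0.61, SE 0.15, adjusted p = 0.0119). The call was lost in 3 of 19 alternative settings, with library totals alone (0.42, adjusted p = 0.0990), with a replicate block and GC offset together and without Control 2 (adjusted p = 0.0954). Of the gene's sequence windows, taken as 100-base words of its transcripts, 5.46% are shared with a processed pseudogene, Gm12966, which drew 339 reads against 6104 for Srsf5.

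Srsf6 (chr2:162931528-162937121), a close relative that also acts on exonic enhancers, was at 803, 683 and 798 CPM in Control and 1012, 1130 and 1226 CPM in Eef1g-cKO. The genotypes did not overlap, and the rise was 1.47-fold (log2 fold change 0.56, SE 0.15, adjusted p = 0.0149). No 100-base word of Srsf6 occurs in another gene. The call was kept in 12 of 19 alternative settings, with adjusted p from 0.00342 to 0.172, and was lost without Control 2 (0.102), without Control 3 (0.0512) and under 5 settings of scaling, filter or GC offset.

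The SR genes with the highest mean TPM in Control, Srsf7 and Srsf9, were not called. Srsf7 was at 677, 749 and 780 CPM in Control and 792, 888 and 616 CPM in Eef1g-cKO, with overlapping genotypes (log2 fold change 0.06, 95% interval -0.25 to 0.37). Srsf9, a small SR protein related to Srsf1, was at 277, 285 and 283 CPM in Control and 218, 224 and 133 CPM in Eef1g-cKO. Its genotypes did not overlap, but the difference did not pass the test (log2 fold change -0.54, SE 0.21, adjusted p = 0.0916), and Srsf9 stood 4th in the Control order and 11th in the Eef1g-cKO order of TPM. It was called with upper-quartile scaling (-0.66, adjusted p = 0.0397) and with the filter of 10 reads in every library (-0.67, adjusted p = 0.0317), and its log2 fold change was -0.13 with the GC content offset (adjusted p = 0.746).

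Srsf1, the founding SR protein, was at 759, 661 and 668 CPM in Control and 733, 558 and 704 CPM in Eef1g-cKO (log2 fold change -0.07). Srsf3, which also couples splicing to mRNA export, was at 860, 940 and 875 CPM and 932, 930 and 877 CPM (0.03, 95% interval -0.24 to 0.31). For Srsf10, an atypical SR protein that represses splicing when dephosphorylated, the log2 fold change was 0.11 (SE 0.16), for Srsf11 0.17 (SE 0.16), and for Srsf2 -0.31 (SE 0.22). Srsf2 shares 25.3% of its exonic bases with Mettl23 and Mfsd11 on the opposite strand, and these had 380 and 153 reads against 1360 for Srsf2, so its value is uncertain where strand was not used in counting.

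The SR-like genes Tra2a and Tra2b encode the Transformer-2 proteins, which bind GAA-rich exonic enhancers. Tra2b was at 460, 471 and 517 CPM in Control and 584, 620 and 619 CPM in Eef1g-cKO, without overlap, and did not pass the test (log2 fold change 0.33, SE 0.15, adjusted p = 0.157). Tra2a was at 435, 386 and 500 CPM and 488, 392 and 408 CPM, with overlap (log2 fold change -0.04, 95% interval -0.37 to 0.29).

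In the hnRNP F/H group, whose proteins bind G runs and can act as enhancers or silencers, all 4 fold changes were positive and 2 were called. All 4 belong to the 2129 most abundant tested genes, of which 1502 had positive fold changes and 24.4% were called higher. The median log2 fold change of that set was 0.28. Hnrnph3 (chr10:63014664-63024217) had the largest called change of the family. It was at 150, 131 and 163 CPM in Control and 410, 261 and 565 CPM in Eef1g-cKO. Every Eef1g-cKO library was above every Control library, although the Eef1g-cKO libraries themselves spread by more than 2-fold. The fold change was 2.75 (log2 1.46, SE 0.24, adjusted p = 0.000494), and the gene went from the 22nd to the 10th place of the family by TPM. The call was kept in each of 19 alternatives, with log2 fold changes from 1.21 to 1.73. The highest CPM belongs to Eef1g-cKO 3, the smallest library, without which the log2 fold change was lowest, at 1.21 (edgeR adjusted p = 0.000314).

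Hnrnph1 (chr11:50376990-50386528) was at 1312, 1296 and 1199 CPM in Control and 2026, 1963 and 1926 CPM in Eef1g-cKO. These are narrow groups far apart, at a fold change of 1.55 (log2 0.64, SE 0.13, adjusted p = 0.00305), and the call was kept in each of the 19 alternatives. Hnrnpf was at 415, 436 and 399 CPM and 481, 482 and 513 CPM, without overlap but not called (log2 fold change 0.24, adjusted p = 0.336), and 49.4% of its sequence windows occur in 10 other genes. The X-linked Hnrnph2 was at 100, 110 and 113 CPM and 147, 156 and 86.5 CPM, with overlap (log2 fold change 0.29, SE 0.25).

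In the hnRNP A/B and D group Hnrnpa1 was the called gene and moved the other way. Hnrnpa1 (chr15:103240432-103246692), which binds UAG motifs and represses exons, was at 185, 214 and 199 CPM in Control and 129, 138 and 75.7 CPM in Eef1g-cKO. The genotypes did not overlap, and the level fell to 0.583 of Control (log2 fold change -0.78, SE 0.24, adjusted p = 0.0331). The lowest value belongs to Eef1g-cKO 3, the smallest library, without which the log2 fold change was -0.54 (adjusted p = 0.0678). The call was kept in 13 of 19 alternatives and was lost without any one of the Control libraries (adjusted p of 0.0868, 0.136 and 0.116 in edgeR), without Eef1g-cKO 1 (0.0645), without Eef1g-cKO 3 and with a gene length offset (0.0506). Of its sequence windows 25.9% are shared with 11 pseudogenes, so reads may be split among them. The pseudogene with most shared windows, Gm10052, drew 24 reads against 1568 for Hnrnpa1.

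Hnrnpd, also known as AUF1, a regulator of AU-rich mRNAs, and its relative Hnrnpdl were lower in each Eef1g-cKO library than in any Control library without passing the test. Hnrnpd was at 190, 201 and 244 CPM in Control and 147, 170 and 102 CPM in Eef1g-cKO (log2 fold change -0.58, SE 0.22, adjusted p = 0.0928). Hnrnpdl was at 562, 552 and 555 CPM and 414, 464 and 383 CPM (-0.40, SE 0.16, adjusted p = 0.0956). Each was called in 4 of 19 alternatives. The lead gene Hnrnpa2b1 was at 3248, 2675 and 3162 CPM and 3746, 3494 and 3678 CPM, also without overlap and not called by edgeR (log2 fold change 0.27, SE 0.13, adjusted p = 0.186). It was called by limma-voom (0.30, adjusted p = 0.0187). Hnrnpa0, an intronless gene, and Hnrnpab overlapped between genotypes, at log2 fold changes of 0.09 (SE 0.24) and 0.10 (SE 0.28). Hnrnpa3 had 2, 22 and 15 reads in Control and 15, 36 and 4 in Eef1g-cKO, and its sequence is shared with 25 genes, so no direction can be read from it.

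**Figure D3:**
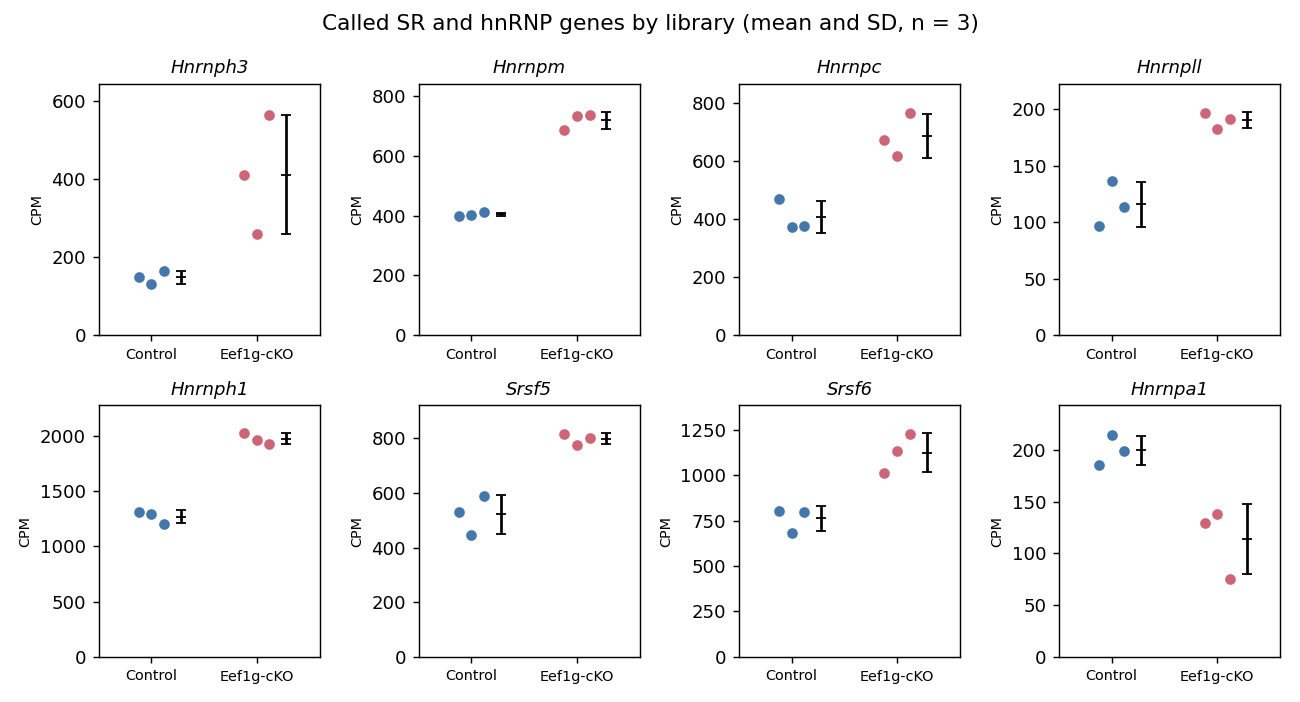
CPM in each library for the 8 called genes, with the mean and SD of 3 libraries beside the points and axes that start at 0. The Control and Eef1g-cKO points do not overlap in any panel, the spread is widest for Hnrnph3 in Eef1g-cKO, and Hnrnpa1 is the gene with the lower Eef1g-cKO points.

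Of the 9 other hnRNP genes, 3 were higher. Hnrnpm (chr17:33646233-33686860), which binds GU-rich RNA, was at 400, 402 and 411 CPM in Control and 686, 736 and 737 CPM in Eef1g-cKO. The rise was 1.78-fold with little spread in either genotype (log2 fold change 0.83, SE 0.15, adjusted p = 0.00114), and it was called in each of the 19 alternatives. In the GENCODE M21 annotation a neighbouring gene on the same strand, March2, covers 14.7% of its 7956 exonic bases. The deposited gene length is 4701 bases, so this share may not hold for the exons that were counted.

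Hnrnpc (chr14:52073377-52104028), which binds uridine tracts on nascent RNA and guards against the use of cryptic exons, was at 471, 372 and 376 CPM in Control and 673, 618 and 768 CPM in Eef1g-cKO. The genotypes did not overlap (log2 fold change 0.75, SE 0.16, adjusted p = 0.00452), and the call was kept in 18 of 19 alternatives. Hnrnpll (chr17:80029487-80062334), known for the splicing switch of CD45 in lymphocytes, was at 96.9, 136 and 114 CPM in Control and 197, 182 and 192 CPM in Eef1g-cKO. It was called (log2 fold change 0.71, SE 0.22, adjusted p = 0.0342) but kept the call in 8 of 19 alternatives, and lost it without each of the 3 Control libraries (adjusted p 0.0537 to 0.150) and without Eef1g-cKO 1 (0.0806). The other 7 losses were upper-quartile scaling (0.0788), library totals (0.135), the filter of 10 reads in every library (0.0822), the replicate block (0.0651), the GC content offset (0.0515), both of these together (0.0849) and libraries thinned to the smallest (0.0882).

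Its paralog Hnrnpl, which binds CA repeats, had the most negative fold change of the family and was not called. Hnrnpl had 96, 121 and 106 reads in Control and 24, 114 and 28 in Eef1g-cKO, or 73.3, 63.5 and 59.3 CPM against 19.4, 44.7 and 43.3 CPM (log2 fold change -0.87, SE 0.36, adjusted p = 0.123), and it was called in 1 of 19 alternatives. Hnrnpk was at 982, 852 and 949 CPM and 1041, 1202 and 1268 CPM, without overlap and not called (0.34, SE 0.14, adjusted p = 0.133). Hnrnpu, a nuclear scaffold protein, was at 832, 766 and 821 CPM and 699, 605 and 797 CPM, with overlap (-0.21, SE 0.15). The log2 fold changes of Hnrnpr, Hnrnpul1 and Hnrnpul2 were -0.17, -0.27 and 0.69, and none was called.

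The hnRNP G genes differed widely in level. Rbmxl2 (chr7:107209445-107210916), the intronless germ cell copy, was at 236 ± 32.4 TPM in Control, and Rbmx (chrX:57383530-57393036), its X-linked parent, at 5.62 ± 2.39 TPM. Rbmxl2 was at 124, 157 and 122 CPM in Control and 140, 125 and 187 CPM in Eef1g-cKO, with overlap (log2 fold change 0.15, 95% interval -0.31 to 0.60). Its exons are 66.9% GC, and the log2 fold change was 0.67 with a GC content offset (edgeR adjusted p = 0.0934), outside that interval, and 0.38 with a gene length offset (0.335). Rbmx had 9, 27 and 13 reads in Control and 32, 63 and 19 in Eef1g-cKO, or 6.87, 14.2 and 7.28 CPM against 25.9, 24.7 and 29.4 CPM. Its Eef1g-cKO libraries were all higher, yet at these counts the difference did not pass the test (log2 fold change 1.47, 95% interval 0.39 to 2.55, adjusted p = 0.0856).

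The polypyrimidine tract-binding genes were represented by Ptbp2 and Ptbp3. Ptbp2, the neuronal and germ cell member, was at 343, 388 and 320 CPM in Control and 391, 608 and 300 CPM in Eef1g-cKO. The genotypes overlapped (log2 fold change 0.32, 95% interval -0.10 to 0.73), and single libraries decided the value. The log2 fold change was -0.0013 without Eef1g-cKO 2, the high library, and 0.55 without Eef1g-cKO 3, where the gene was called (edgeR adjusted p = 0.0365). Ptbp3, the member first described in blood cells, was at 230, 225 and 214 CPM and 233, 160 and 246 CPM, also with overlap (-0.08, 95% interval -0.48 to 0.32). Ptbp2 held 99.0% to 100% of the reads of Ptbp1 and Ptbp2 together in all 6 libraries, and the lowest share, in Eef1g-cKO 1, had an exact 95% binomial interval of 97.6% to 99.7% that covers counting error alone. This share did not differ between genotypes beyond the spread (exact permutation p = 0.9).

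Ratios of related genes within a library do not depend on library scaling, and 6 were compared by exact permutation tests, in which the smallest possible p is 0.1. The count ratio of Rbmxl2 to Rbmx was 18.0, 11.1 and 16.8 in Control and 5.41, 5.06 and 6.37 in Eef1g-cKO. The genotypes did not overlap, at a difference of -1.42 on the log2 scale (exact permutation p = 0.1, 0.3 after Benjamini-Hochberg adjustment over the 6 ratios). From the fitted fold changes of both genes the difference was -1.14 with the gene length offset and -0.73 with the GC content offset. The ratio of Hnrnpll to Hnrnpl was 1.32, 2.15 and 1.92 in Control and 10.1, 4.08 and 4.43 in Eef1g-cKO, again without overlap (1.69 on the log2 scale, exact permutation p = 0.1, adjusted 0.3). This pair was added after the data were seen. Its genes were already without overlap in opposite directions, so the separation and the p followed from the choice of the pair.

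For the remaining 4 pairs the genotypes overlapped. The log2 differences were 0.77 for Hnrnph3 to Hnrnph1 (exact permutation p = 0.2), 0.37 for Tra2b to Tra2a (exact permutation p = 0.2), 0.21 for Hnrnpdl to Hnrnpd (exact permutation p = 0.5) and -0.34 for Ptbp3 to Ptbp2 (exact permutation p = 0.8), with adjusted values of 0.3 to 0.8. With 3 libraries a genotype none of these tests could pass 0.05.

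**Figure D4:**
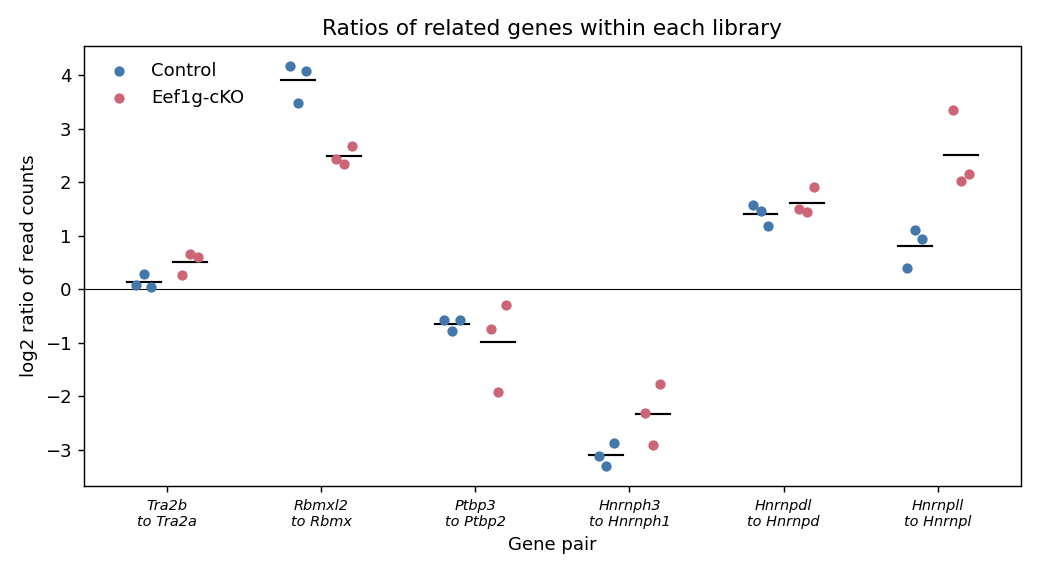
Log2 ratio of read counts within each library for 6 pairs of related genes, with 1 point per library and a bar at the mean of 3 libraries. The genotypes separate for Rbmxl2 to Rbmx, which is lower in Eef1g-cKO, and for Hnrnpll to Hnrnpl, which is higher, and overlap for the other 4 pairs. The Hnrnpll to Hnrnpl pair was chosen after its genes were seen to separate in opposite directions.

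Many of these genes are annotated with transcripts that do not encode the full protein, and a count per gene includes them. Splicing factors are known to control their own levels through poison exons that send the transcript to nonsense-mediated decay. In the GENCODE M21 annotation 65.8% of the 38 genes had at least 1 transcript of the nonsense-mediated decay class, 84.6% of the 13 SR and SR-like genes and 56.0% of the 25 hnRNP and PTB genes, against 30.9% of the other tested protein-coding genes. Retained-intron transcripts were annotated for 71.1% of the 38 and for 62.6% of the others. The 38 had a median of 7.5 annotated transcripts against 5. Hnrnph3 had 1 transcript of the decay class of 6, Srsf6 1 of 4 and Hnrnpa1 2 of 5, while Hnrnph1 had 18 transcripts and none of that class. The gene counts add all these transcripts together, and whether the share of any of them differed was not tested.

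Shared sequence limits some of the members. No 100-base word of 13 members occurs in another gene, and 8 members share at least 10% of their words, among them Hnrnpa1, Hnrnpf, Hnrnpk and Hnrnpm. Exons of 16 members overlap another gene, of 3 on the same strand. Without the 8 members of high sharing, 28 tested members were left, of which 6 were higher and 0 lower, since Hnrnpm and Hnrnpa1 are among the 8. Over all tested genes 7.8% were higher and 6.01% lower, and in the abundant set 24.4% and 5.73%.

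Other genes of the splicing machinery were counted in lists. Of 57 core snRNP and spliceosome genes, 53 were tested, 3 were higher and 3 lower by edgeR and by DESeq2 (6 and 3 by limma-voom), with a median log2 fold change of 0.04. At an unadjusted p under 0.05 in edgeR, 5 were higher and 4 lower. Over all tested genes 7.8% were called higher and 6.01% lower by edgeR, 8.63% and 7.19% by DESeq2, and 10.4% and 7.69% by limma-voom. The Sm protein gene Snrpd1 (0.68, edgeR adjusted p = 0.00773), the U2 snRNP gene Snrpb2 (0.98, 0.000283) and the U5 snRNP gene Snrnp40 (0.68, 0.0339) were higher. Sf3b3 (-1.18, edgeR adjusted p = 0.0421), Sf3b5 (-0.88, 0.0493) and Aqr (-0.97, 0.0240) were lower. The genotypes overlapped in CPM for Sf3b3. Of 20 tested genes for SR-related proteins 1 was higher, Luc7l2 (1.07), a relative of a U1 snRNP component, and 0 were lower by edgeR or DESeq2 (1 at an unadjusted p under 0.05, 1 by limma-voom). Among the 10 tested genes for kinases that phosphorylate SR proteins and importins that carry them, 0 were called by edgeR, DESeq2 or limma-voom, and 2 were higher and 0 lower at an unadjusted p under 0.05 in edgeR, where 14.3% and 13.2% of all tested genes were.

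Of 18 tested genes for other hnRNP-type proteins, Matr3 (0.74, edgeR adjusted p = 0.00214) and Celf1 (0.54, 0.0240) were higher. Fubp1 (-0.51, edgeR adjusted p = 0.0426) was lower. Of 14 tested genes of nonsense-mediated decay, Upf2 (0.76, edgeR adjusted p = 0.0128) was higher. Eif4a3 (-0.76, edgeR adjusted p = 0.0469), of the exon junction complex, was lower. Over all tested genes edgeR called 7.8% higher and 6.01% lower.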

How the data were processed

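RNA was measured in L/Z spermatocytes sorted at 12 dpp, in 3 Control and 3 Eef1g-cKO libraries (polyA RNA, full-length cDNA amplification, paired-end reads, no molecular identifiers). The authors trimmed reads with fastp, aligned them to GRCm38 (mm10) with HISAT2 and counted them per gene with featureCounts. The deposited table holds raw, unscaled read counts for each Ensembl gene with symbol, position and length. Strand and multi-mapping settings are not given in the sources used here. Depth was 763133 to 2617648 reads, so that 3 reads correspond to 1.18 to 4.63 CPM, a limit that covers counting error alone.

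Count columns were matched to samples by name, and groups came from the sample titles. Members and gene lists were chosen with earlier results of these data known. Genes were kept with filterByExpr (minimum count 10, minimum total 15), leaving 8513 genes and 98.1% of the reads, and were tested with edgeR 4.0.16 in R 4.3.3 (TMM, robust quasi-likelihood F test, genotype as the only term, Benjamini-Hochberg adjustment, call at 0.05). The SE was taken from the log2 fold change and its F statistic, as their size over root F, and intervals are 1.96 SE on either side. TPM used the deposited gene length. Libraries of 1 genotype did not agree within sampling noise (chi-square per degree of freedom of at least 6.37). The fit was also run on simulated counts, and no result given here rests on that run.

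Per-library values are given by rule for called members (up to 6 per direction beyond those past the fold limit), the 6 most abundant per length and the PTB, Tra2 and hnRNP G genes. Others shown were chosen after their values were seen. The ratio of Ptbp2 to Ptbp1 is given as a share of their summed reads because Ptbp1 had 0 reads in 2 libraries. The exact permutation tests are two-sided. Of the ratios, 4 were added after the data were seen, namely Ptbp3 to Ptbp2, Hnrnph3 to Hnrnph1, Hnrnpdl to Hnrnpd and Hnrnpll to Hnrnpl. Sequence sharing was counted as 100-base words of annotated transcripts (GENCODE M21, which places 36 of 38 members at the same position), and promoters are RefSeq windows of GRCm38.p6. Genes without a promoter entry were Hnrnpll, Hnrnpul2 and Ptbp3. Alternatives were other scalings and filters, DESeq2 1.42.0, limma-voom (limma 3.58.1), non-robust estimation, a replicate block, gene length and GC offsets, each library left out, and, chosen after seeing the data, libraries thinned to the smallest, members with high sequence sharing left out, and gene length and GC offsets in the ratios.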

Additional observations from a re-analysis of the deposited data

How the results depend on the processing

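Counts of called members stayed within 1.5 times of 7 higher and 1 lower under RLE scaling, no low-count filter, DESeq2 and non-robust estimation. The number called higher was 4 with library totals alone, 3 with the replicate block and GC content offset together and 1 with the fold limit, and 4 to 8 with each library left out (4 without Control 2). The share of all tested genes called higher moved as well, from 7.8% in the main fit. It was 3.91% with library totals, 5.38% with the block and GC content offset, 3.42% with the fold limit and 4.08% to 8.57% with each library left out. The number called lower was 4 with upper-quartile scaling and with the filter of 10 reads in every library, 2 with library totals, limma-voom, the GC content offset, the block with that offset and thinned libraries, 0 with the gene length offset, the fold limit and members of low sequence sharing, and 0 to 1 with each library left out (0 without any Control library, Eef1g-cKO 1 or Eef1g-cKO 3). The share of all tested genes called lower was 6.01% in the main fit. It was 7.51% with upper-quartile scaling, 7.2% with the 10-read filter, 7.55% with library totals and 7.69% with limma-voom. It was 4.65% with the GC content offset, 3.59% with the block and that offset and 7% with thinned libraries. With the gene length offset it was 5.05%, with the fold limit 4.96%, and with each library left out 2.52% to 6.86%.

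The median log2 fold change of the members (0.15) was 0.027 with upper-quartile scaling, -0.053 with library totals, 0.20 without a filter, -0.031 with the 10-read filter, 0.24 with the gene length offset, 0.11 with the block and GC content offset, 0.037 with thinned libraries and 0.15 to 0.22 with each library left out. Relative to all genes it was -0.027 under the 10-read filter and 0.057 with thinned libraries. The cause was not tested.

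Hnrnph1, Hnrnph3 and Hnrnpm were called in each of 19 alternatives. No called member changed sign in these. Of the uncalled members named by rule, the sign changed for Ptbp2 and Ptbp3 with a library left out, and for Srsf7 (-0.061 with upper-quartile scaling, -0.12 with library totals, -0.075 with the 10-read filter, -0.14 with the GC content offset, -0.15 with the block and that offset), Rbmxl2 (-0.053 with library totals) and Tra2a (0.0046 without a filter, 0.032 with limma-voom). It also changed in at least 1 alternative for 7 other uncalled members, Hnrnpa0, Hnrnpab, Hnrnpul1, Srsf1, Srsf3, Srsf10 and Srsf11. With each library left out, Srsf7 ran from -0.044 to 0.23, Tra2a from -0.12 to 0.068, Ptbp2 from -0.0013 to 0.55, Ptbp3 from -0.16 to 0.12, the Ptbp3 to Ptbp2 ratio from -0.69 to 0.13, the Rbmxl2 to Rbmx ratio from -1.64 to -1.29 (-1.14 with the gene length and -0.73 with the GC content offset) and the percentage share of Ptbp2 from -0.313 to 0.199 (Eef1g-cKO minus Control). With the GC content offset the ratio differences of Ptbp3 to Ptbp2 and Hnrnpdl to Hnrnpd were -0.51 and 0.39.

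Replicate numbers were not shown to pair the libraries. Deviations of same-numbered libraries correlated at -0.04, 0.02 and -0.05, and with the replicate block 6 members were higher and 1 lower, at a median of 0.15. Calls over all genes fell from 664 and 512 to 496 and 377. Depth limits the members with few reads, Rbmx and Hnrnpa3 among them, and leaves Ptbp1, Srsf4 and Srsf12 untested.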
